A study of Homo sapiens with 12 samples.

Results

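All 12 libraries of the series entered a single comparison, in which 6 libraries of Jurkat cells titled or labelled as having ZNF683 induced were set against 6 that were not. Jurkat is an established human T cell acute leukaemia line. The induced libraries were the 3 labelled Dox-induced ZNF683 and the 3 of a line titled Hobit that had doxycycline (Dox+). The uninduced libraries were the 3 labelled Mock and the 3 of the Hobit line without doxycycline (Dox-). Cells were grown in RPMI medium with fetal calf serum, and the treatment text, the same for all 12 libraries, gives doxycycline at 1 ug/uL as present or absent. Which libraries had it was read from their genotype and title. No label tells whether Mock cells received doxycycline, whether replicates were separate cultures, which vector or promoter carried the factor, or whether the line was 1 clone. The effect of ZNF683 and that of doxycycline therefore cannot be told apart in the Dox libraries. The same holds for the ZNF683 and Mock libraries unless Mock cells also received doxycycline, and it holds for the common effect. The p-values rest on a spread among libraries that may be technical.

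The 2 comparisons share no library. The ZNF683 and Mock libraries stand in a table of 55514 genes and the Dox libraries in another of 44389, with 43805 genes in both. The test took the 14468 genes whose mean TPM was 1 or more in each table. TPM is an abundance corrected for transcript length and scaled to the same total in every library. PRR13P2 lay just inside that limit, at 1 TPM in the first table and 2.6 in the second, and AL031772.1 just outside, at 2.13 and 0.9998. Values below are TPM after a scaling within each table that equalises the typical gene, called scaled TPM. Differences are log2(scaled TPM + 1), induced minus uninduced, ± their standard error, which understates the change of low genes. The common effect is the mean of the differences in the 2 tables. Read numbers are not kept in TPM, and library depth is unknown.

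Hobit, the product of ZNF683, is a zinc finger protein related to the transcription factor Blimp-1. It is known from tissue-resident, natural killer and effector T lymphocytes, where it takes part in the control of cytotoxic effector genes and of genes for leaving a tissue. Perforin and granzymes are the proteins that cytotoxic lymphocytes release to kill target cells. Jurkat derives from a T cell leukaemia of the TAL1 type, in which TAL1 and its partners of the LMO family drive a leukaemic gene programme.

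The Dox- libraries differed among themselves. AL135790.1, chosen after its values were seen, made up 50.7% of the TPM of Dox- library 1, 12.8% of that of library 2 and 4.94% to 10.5% elsewhere. The protein-coding share was 41.5% for the first of these, 74.7% for the second and 81.5% to 88.3% elsewhere. Dox- library 2 correlated with the rest of its table at 0.905 to 0.922 and held 638 scaled TPM of the heat shock gene HSPA6, which was at most 7.34 in any other library. Its part in the common effect is given below as values without it. All 14 Jurkat identity markers were above the filter, with a sum of 1670 to 4250 scaled TPM per library. Of these, 11 had a positive common difference. Their median was 0.23, against 0.01 for all genes, and 0.11 without Dox- library 2. Markers of other cell types were low: 6 of 8 B cell markers, 9 of 10 myeloid, 7 of 7 erythroid and 8 of 10 epithelial and fibroblast markers did not enter the test. The B cell list summed to 60.5 to 76.2 scaled TPM in ZNF683, 59.1 to 76.6 in Mock, 33.2 to 36.6 in Dox+ and 15.3 to 29.6 in Dox- libraries, mostly CD79A and BLK, while MS4A1 stayed at or below 0.265. Erythroid markers summed to at most 4.59 except for 35.3 in a Dox- library, and epithelial and fibroblast markers to at most 12.2 except for 21.7. In both lists the high library was Dox- 2, with HBA1 at 19.6 and COL1A1 at 17.0 scaled TPM.

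ZNF683 itself (chr1:26361634-26374522, minus strand, GENCODE v29 on GRCh38) was low throughout. It had 1.15, 1.70 and 1.06 scaled TPM in the ZNF683 libraries and 0.766, 1.58 and 0.665 in the Mock libraries. It had 0.392, 0.675 and 0.505 in Dox+ and 0.199, 0.239 and 0.377 in Dox-. The groups overlapped in the first table and were narrowly apart in the second. Its mean of 0.434 TPM as deposited in the Dox table kept it out of the test across genes. The mean difference over both tables was 0.24 (log2), with a two-sided exact permutation p of 0.08 over the 400 arrangements of labels within tables, of which the smallest possible p is 0.005. Without Mock library 2 the difference was 0.34 with that smallest p, and without any other single library the p stayed between 0.065 and 0.205. With a pseudocount of 0.1 in place of 1 the difference was 0.58 with an exact permutation p of 0.04. With libraries of the same replicate number taken as pairs, the difference of 0.24 had an exact sign-flip p of 0.0312. Whether the target gene passed thus depended on the pseudocount, on Mock library 2 and on the pairing. The directions below rest on the labels.

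Across all 14468 genes, limma called 1 gene at an adjusted p under 0.05, which was lower, and 0 that were higher. These are 0.00691% and 0% of the genes tested. At an unadjusted p under 0.05 there were 818 higher genes (5.65%) and 794 lower genes (5.49%), and 51.7% of all genes were above 0. Without scaling that split was 1582 higher and 152 lower, since the median difference of all genes was 0.18 as deposited and 0.01 after scaling. With 1 library left out it ran from 435 higher and 441 lower (without Dox+ library 3) to 1898 higher and 1448 lower (without Dox- library 3). Counts of list members in such a setting stand against these counts, not against 5.65% and 5.49%. For 180 genes (1.24%) every induced library stood above every uninduced library within both tables, and for 112 genes (0.774%) every induced library stood below. Of the 180 genes, 92.2% were protein-coding and 0.556% pseudogenes. Of the 112 genes, 65.2% were protein-coding and 15.2% pseudogenes, against 76.3% and 5.36% of all genes tested. Without scaling these counts were 196 and 12.

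**Figure D1:**
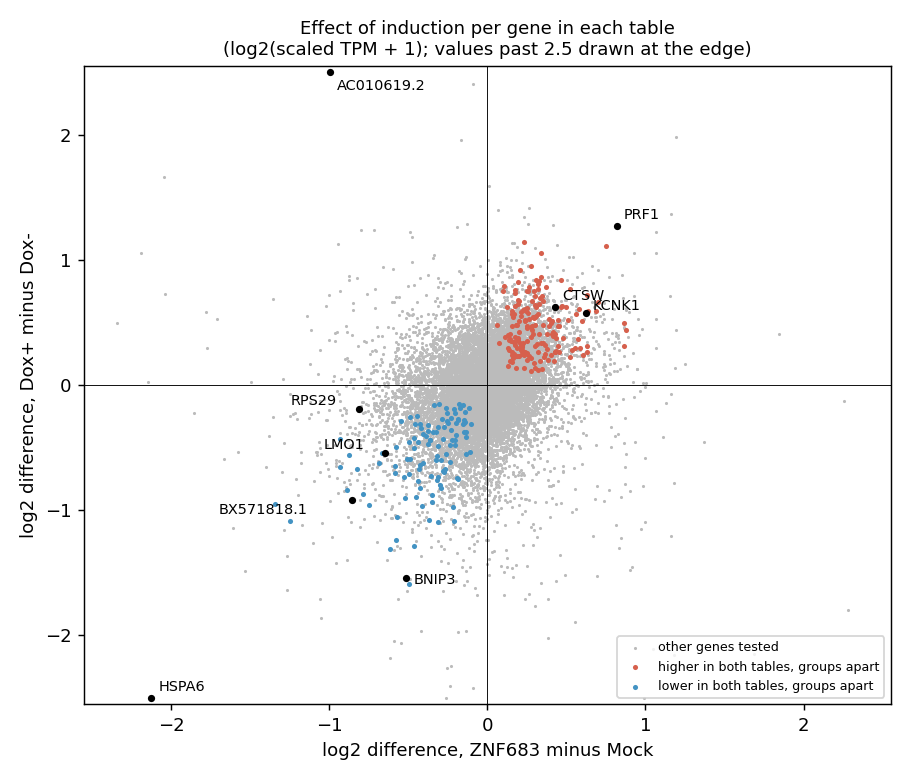
Difference of each of the 14468 genes in the ZNF683 and Mock table (x axis, log2) against its difference in the Dox table (y axis, log2). Genes with groups apart in both tables are coloured, and 9 genes are labelled. The cloud is wide and centred near 0 on both axes, with 63.7% of genes having the same sign in both tables, and BX571818.1 sits in the lower left quadrant.

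The called gene was BX571818.1, a transcribed unitary pseudogene (chr1:206035253-206062257, plus strand). It had 13.6, 16.6 and 15.2 scaled TPM in the ZNF683 libraries against 31.1, 28.5 and 25.1 in Mock. It had 10.3, 7.83 and 8.52 in Dox+ against 17.4, 18.3 and 17.1 in Dox-. Every induced library was below every uninduced library of its table. It fell by 0.89 ± 0.09 (log2, limma adjusted p = 0.00463), by 0.86 in the first table and 0.92 in the second. Its means were 15.1 ± 1.47 and 28.2 ± 2.98 scaled TPM in the first table and 8.87 ± 1.25 and 17.6 ± 0.637 in the second (SD, n = 3). Its clone-type symbol lies outside the naming rule, so it is named as the whole of that count. As deposited, without scaling, it did not pass, at -0.70 (limma adjusted p = 0.398). With libraries of the same replicate number taken as pairs, 0 genes were called lower, so it did not pass there either. The gene nearest to the threshold on the other side was UBA7, an activating enzyme for a ubiquitin-like modifier, at -0.61 ± 0.09 (limma adjusted p = 0.191), also outside the rule through its low level. UBA7 passed without Dox- library 2 (limma adjusted p = 0.0478) and with array weights, which count each library by its estimated precision (limma adjusted p = 0.022). The estimation of these weights stopped before it converged, so a pass with them is given as a description only.

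PRF1, the perforin gene (chr10:70597348-70602775, minus strand), had the largest difference of the 12 higher genes named by rule. It had 9.04, 13.3 and 12.3 scaled TPM in the ZNF683 libraries against 5.82, 5.67 and 6.66 in Mock. It had 5.69, 7.0 and 5.42 in Dox+ against 2.49, 0.710 and 3.11 in Dox-. The groups did not overlap in either table, and Dox- library 2 held the lowest value of its table. The common difference was 1.04 ± 0.20 (95% interval 0.61 to 1.48), with 0.82 in the first table and 1.27 in the second. Over all genes it missed the threshold (limma adjusted p = 0.278). Without Dox- library 2 the difference was 0.85 and it passed (limma adjusted p = 0.0240). When any other single library was left out, PRF1 did not pass. With array weights, whose estimation did not converge, PRF1 was at 0.94 and passed as well (limma adjusted p = 0.0125). The 250 bases before its start (RefSeq, GRCh38.p14, chr10:70602742-70602991, minus strand) are printed because PRF1 had the largest difference of the named higher genes. They hold none of the 3 motifs searched.

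PRF1: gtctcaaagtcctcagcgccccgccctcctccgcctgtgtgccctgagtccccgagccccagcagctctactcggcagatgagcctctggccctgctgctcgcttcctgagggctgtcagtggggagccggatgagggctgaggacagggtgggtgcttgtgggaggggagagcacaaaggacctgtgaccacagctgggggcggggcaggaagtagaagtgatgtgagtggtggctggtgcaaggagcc

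The cytotoxicity list held 24 genes, of which 14 were high enough to test and 12 of those 14 were positive. Its median was 0.19, against 0.01 for all genes, and none passed singly. At an unadjusted p under 0.05 there were 4 higher and 1 lower, and 2 were higher with groups apart in both tables. The shares over all genes are 5.65%, 5.49% and 1.24%. The second of these was CTSW, which encodes the papain-like protease cathepsin W of killer lymphocytes. It had 27.6, 32.0 and 31.3 scaled TPM in ZNF683 libraries against 24.7, 23.9 and 18.5 in Mock. It had 13.6, 18.1 and 14.9 in Dox+ against 8.86, 8.43 and 12.1 in Dox-. Within each table the induced libraries stood higher, by 0.53 ± 0.12 in common (limma adjusted p = 0.351).

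Other genes of the killing machinery had smaller or opposite differences. Granzyme A (GZMA) had 26.3, 21.7 and 27.4 scaled TPM in ZNF683 libraries and 39.6, 22 and 25.2 in Mock, and 12, 13.6 and 14.0 in Dox+ against 19.4, 18.8 and 16.5 in Dox-. Its groups overlapped in the first table and lay apart, with Dox+ lower, in the second (common difference -0.30 ± 0.14, limma adjusted p = 0.443). GZMM, another granzyme, was at -0.32 ± 0.17. SRGN, the proteoglycan core of the granules, was at 0.26 ± 0.09, and the granule membrane gene NKG7 at 0.33 ± 0.14, with overlapping groups in the first table for each. GZMB, GNLY and IFNG were under 1 scaled TPM in every library and were not tested. Without Dox- library 2 the median of the cytotoxicity list was 0.073 with 11 of 14 positive, and without Dox- libraries 1 and 2 it was 0.056 with 12 of 14 positive.

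**Figure D2:**
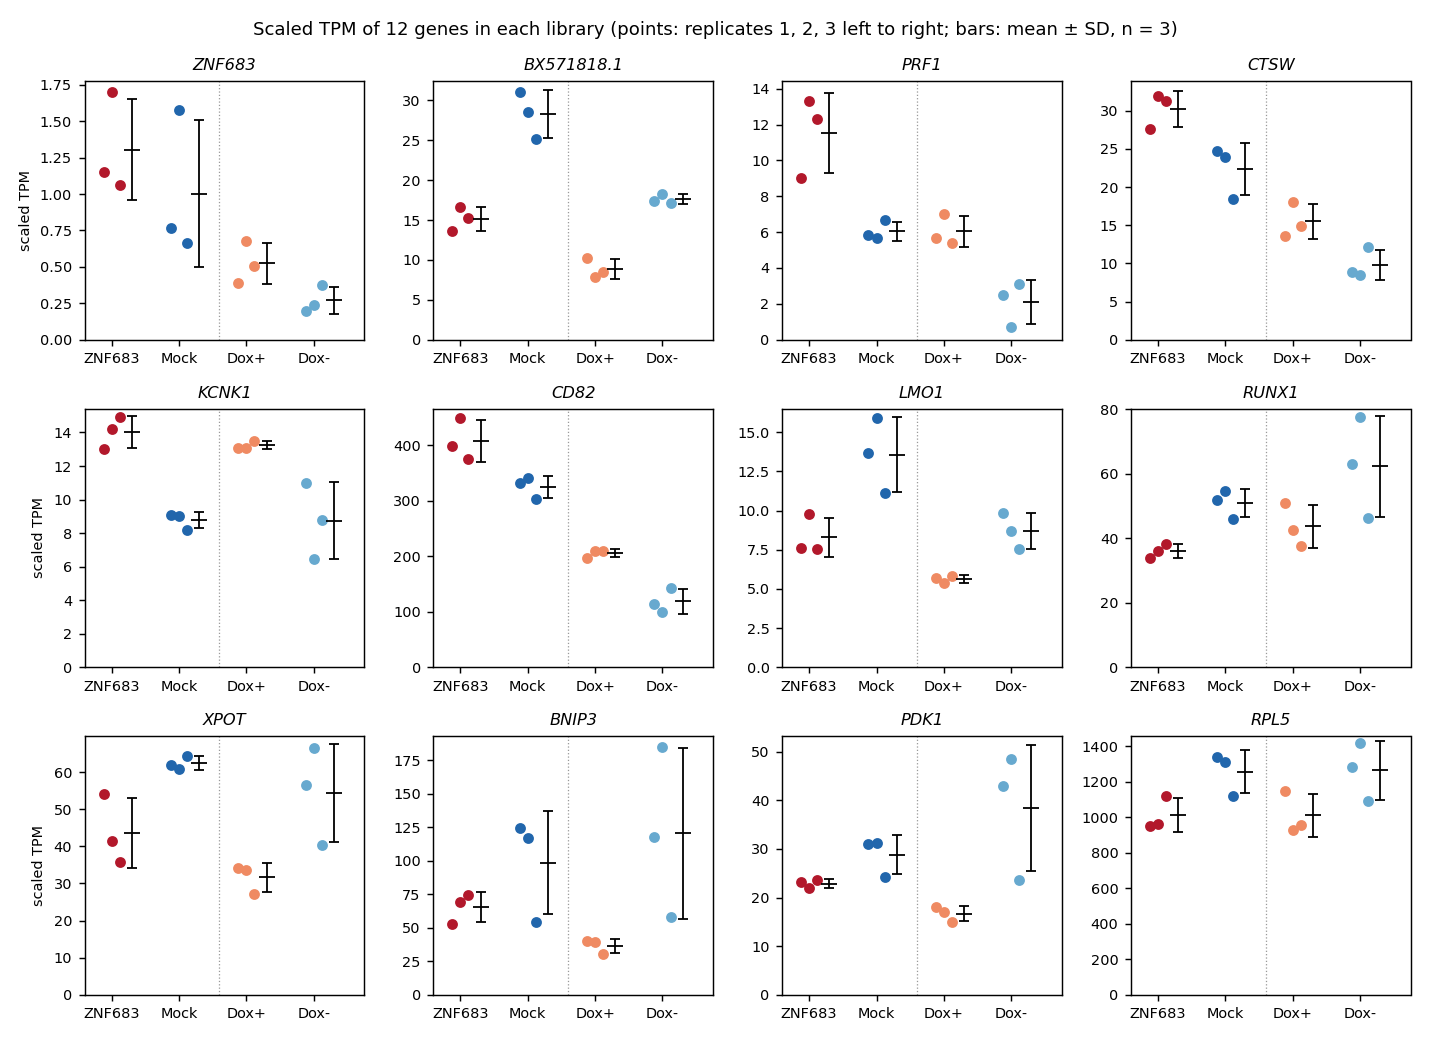
Scaled TPM (y axis) of 12 genes in each library, with points for replicates 1 to 3 and a bar for the mean ± SD of 3 libraries per group. PRF1 and CTSW stand higher and BX571818.1 lower in the induced libraries of both tables, while BNIP3 overlaps in the first table and RUNX1 in the second.

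The remaining named higher genes were small differences with groups mostly apart. KCNK1, a potassium leak channel, had 13, 14.2 and 14.9 scaled TPM in ZNF683 libraries, 9.09, 8.99 and 8.21 in Mock, 13.1, 13.1 and 13.5 in Dox+ and 11, 6.45 and 8.78 in Dox-. Its groups were apart in both tables, and its common difference was 0.60 ± 0.11. Without Dox- libraries 1 and 2 the difference of KCNK1 was 0.60. With array weights, whose estimation did not converge, KCNK1 was at 0.54 and passed (limma adjusted p = 0.022). P2RX5, an ATP-gated cation channel, had a mean of 18.9 ± 1.80 in ZNF683 and 13.3 ± 0.592 in Mock libraries, and 16.7 ± 1.43 in Dox+ and 10.5 ± 1.96 in Dox- (SD, n = 3). ANXA1, a phospholipid-binding protein of anti-inflammatory signalling, had 322 ± 15.3 against 236 ± 15.0 and 282 ± 19.0 against 227 ± 10.8 scaled TPM. The tetraspanin gene CD82 had 407 ± 37.1 against 325 ± 19.8 and 206 ± 7.6 against 118 ± 22.3. ANXA1 had the most precise of these differences, 0.38 ± 0.07.

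The other 7 were LBH, a transcriptional cofactor, APOBEC3C, a cytidine deaminase that restricts viruses, DTNBP1 of organelle traffic, the calcium pump gene ATP2A3, SNN, CTSW and RASAL3, a Ras-inactivating protein of blood cells. Their differences lay between 0.41 for DTNBP1 and 0.67 for RASAL3. The groups of RASAL3 overlapped in the first table, where ZNF683 library 3 had 25.7 and Mock library 3 had 25.8. The limma adjusted p of these 12 higher genes ran from 0.268 to 0.400, so none passed over all genes tested with all libraries weighted equally. A gene outside the rule, chosen after its values were seen, was TIMP1, an inhibitor of matrix metalloproteinases, at 0.68 ± 0.12 (limma adjusted p = 0.268).

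Of the 12 lower genes named by rule, LMO1 came first by p. LMO1 (chr11:8224304-8268716, minus strand) encodes a LIM-only adaptor that works with TAL1 in T cell leukaemia. It had 7.58, 9.75 and 7.52 scaled TPM in the ZNF683 libraries against 13.7, 15.9 and 11.1 in Mock. It had 5.71, 5.35 and 5.85 in Dox+ against 9.81, 8.72 and 7.56 in Dox-. All induced libraries lay below the uninduced of their table, by 0.59 ± 0.11 (log2 difference -0.59, limma adjusted p = 0.268). TAL1 itself pointed the other way, with 56.8, 64.9 and 54.4 in ZNF683 libraries against 41.9, 46.0 and 48.9 in Mock, and 53.6, 59.1 and 55.1 in Dox+ against 43.4, 20.7 and 46.2 in Dox-. Its groups were apart in both tables, at 0.51 ± 0.17 (limma adjusted p = 0.441).

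RUNX1, a core partner of TAL1 in this leukaemia, was at -0.48 ± 0.12 (limma adjusted p = 0.441), with -0.49 in the first table and -0.48 in the second. It had 33.9, 36.0 and 38.3 scaled TPM against 51.8, 54.8 and 46.1 in the first table, which did not overlap, and 50.8, 42.6 and 37.6 against 63.1, 77.6 and 46.3 in the second, which did. MYB, another member of the circuit, was at 0.03 and GATA3 at 0.25. IKZF1, which encodes the lymphoid regulator Ikaros, had groups apart in both tables at 0.47 ± 0.26, with 29.2 in Dox- library 2 against 99.1 and 102 in the other Dox- libraries. Of the 13 leukaemia factor genes tested, 2 were apart and higher in both tables and 1 apart and lower. Over all genes these shares are 1.24% and 0.774%. Among the same 13, 8 were positive and 5 negative (median 0.03), with 2 higher and 2 lower at an unadjusted p under 0.05. The share over all genes is 5.65% higher and 5.49% lower. Without Dox- library 2 the counts were 3 higher and 4 lower, where all genes tested had 940 higher and 718 lower.

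PLAAT4, a lipid acyltransferase of growth control, was the next lower gene. It had 7.88, 8.79 and 9.20 scaled TPM in ZNF683 libraries against 21.9, 16.1 and 14.7 in Mock, and 9.04, 7.77 and 7.48 in Dox+ against 11.3, 10.0 and 12.6 in Dox-. The groups were apart in both tables, and the difference was -0.68 ± 0.13 (limma adjusted p = 0.272). XPOT, which exports transfer RNA from the nucleus, had 54.1, 41.3 and 35.7 against 61.8, 60.8 and 64.4, and 34.2, 33.7 and 27.2 against 56.6, 66.4 and 40.3. CNOT1, the scaffold of the CCR4-NOT deadenylase, was at -0.42 ± 0.09, and DENR, a factor of translation re-initiation, at -0.52 ± 0.12.

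Among the remaining lower genes were TUBE1 (epsilon tubulin, -0.61), PLA2G2C (a phospholipase A2 family gene, -0.72), MCUB (an inhibitory subunit of the mitochondrial calcium uniporter, -0.37), the long noncoding RNA LINC01934 (-0.44), the kinase gene CDKL1 (-0.48) and LYSMD3 (-0.61). The 12 lower genes had limma adjusted p from 0.268 to 0.440. The groups of LYSMD3 overlapped in the second table, where Dox- library 3 had 8.33 scaled TPM against 8.25 to 10.3 in Dox+. Without Dox- library 3 it passed, at -0.75 (limma adjusted p = 0.0383).

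**Figure D3:**
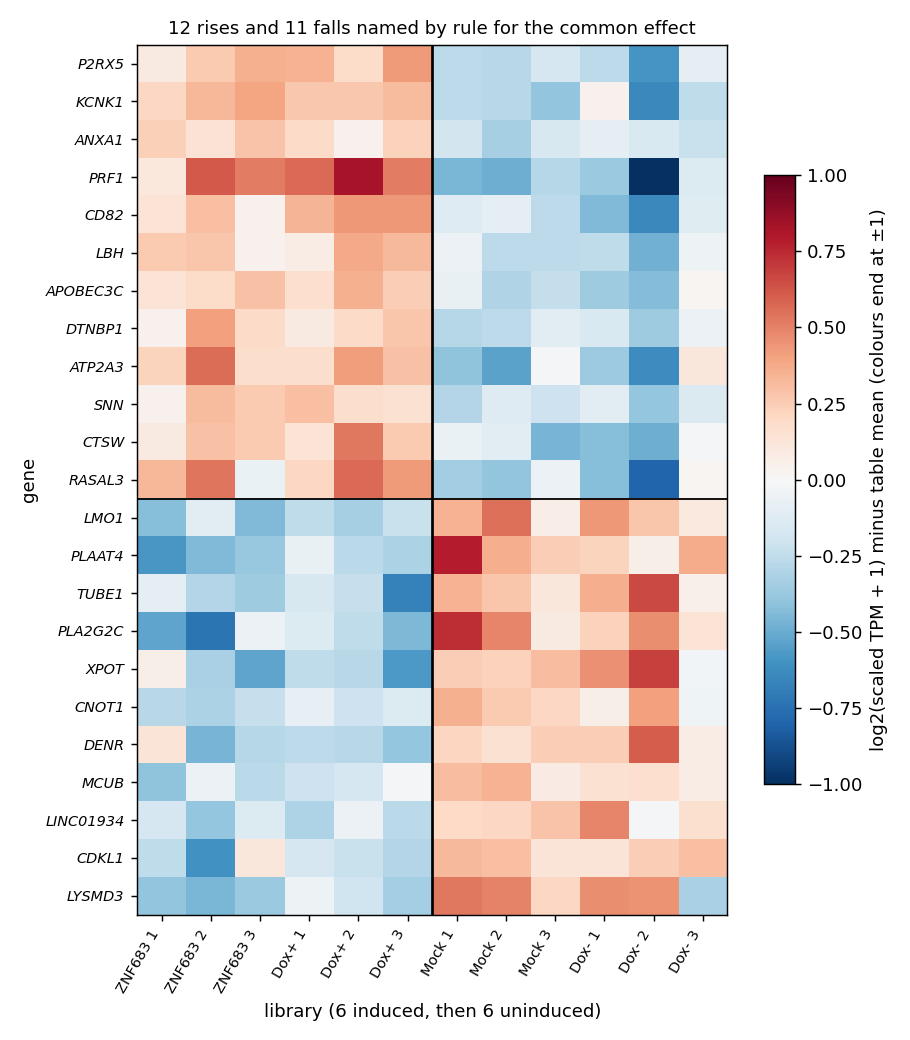
Each row is 1 of 12 higher and 11 lower genes named by rule and each column a library, 6 induced then 6 uninduced. Colour gives log2(scaled TPM + 1) minus the mean of that gene's table, red above and blue below it. The genes were chosen on this contrast, so the block pattern is a description, and the column of Dox- 2 shows the strongest colours for several genes.

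Blimp-1, the relative of Hobit, is known to bind a short DNA core of which AGNGAAAG (N is any base) was searched on both strands of the 250 bases before gene starts in RefSeq promoters (GRCh38.p14). Of the genes tested 9553 had a promoter in that table, and 544 of them (5.69%) held the core. It was in 9 of 139 genes apart and higher in both tables (6.47%), in 9 of 69 apart and lower (13%), in 0 of 7 matched named higher genes and in 1 of 9 matched named lower genes. Those shares were not tested. The lower gene is PLA2G2C, printed with the core in capitals at -31 to -24 from the RefSeq start (chr1:20186519-20186768, minus strand). GENCODE v29 has the gene at chr1:20161253-20177424, so this window lies upstream of a start that the 2 annotations place differently, and which of them the transcripts used was not tested. CD2, an adhesion receptor gene of the T cell receptor list, is printed beside it as a higher gene with the core on the opposite strand, at -226 to -219 (chr1:116754180-116754429, plus strand). CD2 was not called and is not among the named higher genes. Of its list, 2 of 19 genes with a promoter held the core (10.5%). The second run of capitals in CD2 marks the hypoxia core ACGTG described further on.

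PLA2G2C: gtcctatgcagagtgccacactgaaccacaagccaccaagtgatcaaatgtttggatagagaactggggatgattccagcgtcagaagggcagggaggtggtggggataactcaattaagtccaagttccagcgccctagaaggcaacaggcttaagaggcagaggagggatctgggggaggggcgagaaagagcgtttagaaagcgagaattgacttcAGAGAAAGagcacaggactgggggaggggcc

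CD2: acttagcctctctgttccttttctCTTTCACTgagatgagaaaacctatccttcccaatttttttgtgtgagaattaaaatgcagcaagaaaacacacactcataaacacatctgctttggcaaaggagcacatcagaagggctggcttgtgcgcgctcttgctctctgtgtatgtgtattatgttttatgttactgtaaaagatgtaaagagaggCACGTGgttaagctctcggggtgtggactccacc

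Genes of the T cell receptor and its proximal signalling had mostly positive differences. All 33 were tested, 28 were positive and 5 negative, and the median was 0.22 against 0.01 for all genes. None passed singly, 9 were higher and 0 lower at an unadjusted p under 0.05, and 7 were higher with groups apart in both tables, against 5.65%, 5.49% and 1.24% of all genes. The 9 became 6 without any 1 of the Dox+ libraries and 14 without Dox- library 3. The higher genes among all tested went from 818 to 777, 503 and 435 without Dox+ libraries 1, 2 and 3. They went to 1898 without Dox- library 3. TRAT1, an adaptor that associates with the receptor complex, had 104, 125 and 102 scaled TPM against 54.3, 61.3 and 81.7 in the first table and 68.7, 84.2 and 91.9 against 57.7, 12.7 and 67.1 in the second. CD2 had 301, 339 and 322 against 295, 281 and 259, and 249, 291 and 258 against 218, 71.5 and 176. In both, Dox- library 2 was by far the lowest.

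PTPRC, the CD45 phosphatase gene, also had its lowest Dox- value in library 2, with 319, 303 and 285 against 239, 201 and 256, and 205, 276 and 219 against 201, 114 and 203. LCP2, which encodes the SLP-76 adaptor, had 152, 144 and 128 against 119, 111 and 126, and 105, 118 and 102 against 81.3, 37.8 and 84.1. TRAC, the constant region of the receptor alpha chain, was at 0.44 ± 0.11, and the T cell surface receptor gene CD6 at 0.30 ± 0.09. CD6 had groups apart in both tables, while Mock library 1 overlapped the ZNF683 libraries for TRAC. The signalling kinase genes LCK and ZAP70 were at 0.26 ± 0.12 and 0.04 ± 0.07, and FYN at -0.36 ± 0.23. The CD3 chain genes CD3D, CD3E and CD3G were at 0.26, 0.19 and 0.27, with overlapping groups.

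The list mean in Dox- library 2 was -0.42, against 0.21 in each of the other Dox- libraries and 0.32 to 0.38 in Dox+, so that the Dox groups stayed apart without it. In the first table the list means were 0.04 to 0.13 in ZNF683 and -0.07 to 0.06 in Mock libraries, and overlapped. Without Dox- library 2 the list median was 0.13 with 25 of 33 positive, and without Dox- libraries 1 and 2 it was 0.11 with 24 positive. The B cell markers tested had CD79A at 0.28 ± 0.22 and BLK at 0.31 ± 0.13, and their part in this list's difference was not tested.

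Actin cytoskeleton genes had 25 of 32 members positive, against 51.7% of all genes, and a median of 0.21. At an unadjusted p under 0.05 there were 10 higher and 0 lower, against 5.65% and 5.49% of all genes. The 10 became 6 without Dox+ library 3, 16 without ZNF683 library 3 and 17 without Dox- library 3. The higher genes among all tested numbered 435, 859 and 1898 in those settings, against 818 with all libraries. WAS, the Wiskott-Aldrich actin regulator, had 86.0, 91.9 and 80.7 scaled TPM against 75.1, 71.9 and 78.9, and 50.6, 54.8 and 60.6 against 35.9, 23.3 and 47.1. ARPC2, a subunit of the Arp2/3 branching complex, had 767, 841 and 785 against 737, 706 and 660, and 540, 583 and 611 against 525, 448 and 509. ARHGDIB, a GTPase regulator, was at 0.37 ± 0.13. These were the 3 members with groups apart in both tables (1.24% of all genes were apart and higher). The cytoskeletal genes VIM and TLN1 were at -0.29 ± 0.14 and -0.24 ± 0.11. Without Dox- libraries 1 and 2 the median was 0.13 with 26 of 32 positive.

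**Figure D4:**
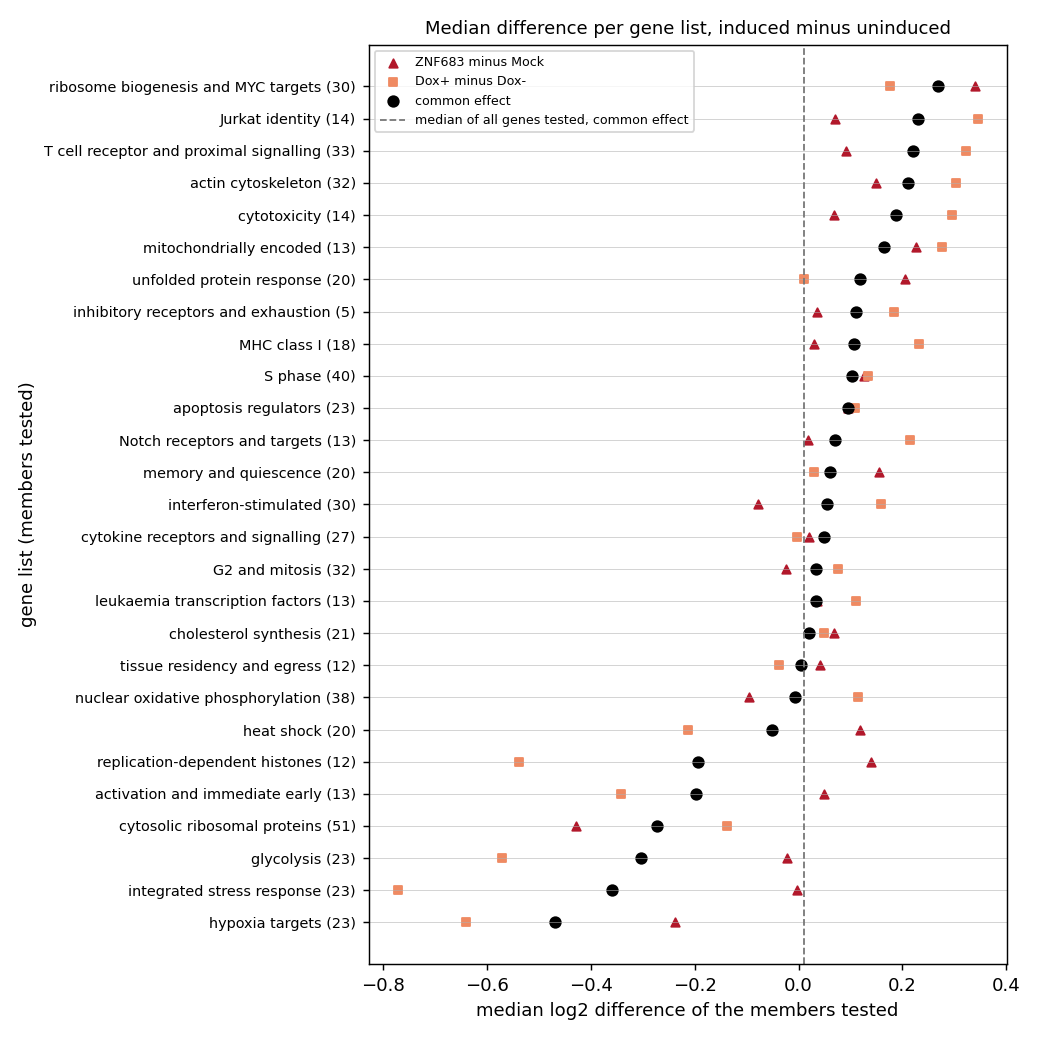
Median log2 difference (x axis) of the tested members of each gene list (y axis), for the common effect and for each table. Ribosome biogenesis, Jurkat identity, T cell receptor, actin and cytotoxicity lists lie right of the dashed line at the median of all genes. Hypoxia, integrated stress, glycolysis and ribosomal protein lists lie left of it.

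Hypoxia targets, the genes switched on by the HIF factors when oxygen is short, had the lowest median of the lists with 5 or more members tested. Of 28 genes 23 were tested, 22 of these were negative, and the median was -0.47. None passed singly, 0 were higher and 10 lower at an unadjusted p under 0.05, and 0 had groups apart in both tables. Over all genes 5.49% were lower by that p and 0.774% apart and lower. The 10 became 6 without Dox+ library 2 and 15 without Dox- library 3. The lower genes among all tested numbered 543 and 1448 in those settings, against 794 with all libraries. BNIP3, a receptor for the removal of mitochondria, had 52.6, 69.0 and 74.5 scaled TPM in ZNF683 libraries against 124, 117 and 54.6 in Mock. It had 39.9, 39.6 and 30.7 in Dox+ against 118, 185 and 58.1 in Dox-. Mock library 3 lay below 2 of the 3 ZNF683 libraries, and Dox- library 3 was the lowest of its group. The common difference was -1.03 ± 0.30 (limma adjusted p = 0.441).

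ANKRD37, another HIF target, had 10.7, 15.1 and 13.2 against 23.3, 22.7 and 14.5, and 7.28, 7.13 and 6.97 against 13.9, 27.3 and 10.1. As for BNIP3, library 3 was the lowest of the Mock and of the Dox- libraries, and the groups overlapped in the first table. Its difference was -0.81 ± 0.21 (limma adjusted p = 0.441). PFKFB4, which raises the flux of glycolysis, was at -0.93 ± 0.25, and MIR210HG, the host gene of a hypoxia microRNA, at -0.98 ± 0.32. ADM, the gene of the vessel-relaxing peptide adrenomedullin, was at -1.32 ± 0.47, with 7.43, 23.1 and 2.23 in Dox- against at most 0.963 in Dox+, but with 1.94, 1.47 and 1.08 in Mock against 0.931, 1.24 and 1.13 in ZNF683 libraries. The list means of the first table overlapped, from -0.37 to -0.16 in ZNF683 and from -0.32 to 0.20 in Mock. In the second they were -1.02 to -0.76 in Dox+ and -0.63, 0.07 and 0.56 in Dox-, with library 2 the highest.

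A form of the core bases that HIF binds, ACGTG, was searched in the 250 bases before the start. It was found in 13 of the 20 tested hypoxia targets with a promoter (65.0%). It was in 23.9% of the tested genes with a promoter and 18.7% of all 27305 promoters in the table. ANKRD37 (chr4:185396591-185396840, plus strand) and BNIP3 (chr10:131981924-131982173, minus strand) are printed as 2 members with low p that hold it. The capitals mark the core. CACGTG reads the same on both strands and so counts on each, at -162 to -157 in ANKRD37, which has a further copy at -143 to -139, and at -134 to -129 in BNIP3. PFKFB4 and PDK1 had no match to ACGTG in this window, and other forms of the core were not searched.

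ANKRD37: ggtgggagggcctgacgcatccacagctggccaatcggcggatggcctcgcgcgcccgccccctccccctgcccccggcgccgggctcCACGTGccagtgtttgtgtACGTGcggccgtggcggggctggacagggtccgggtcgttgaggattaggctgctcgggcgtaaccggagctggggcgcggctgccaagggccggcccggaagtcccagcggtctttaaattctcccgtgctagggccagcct

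BNIP3: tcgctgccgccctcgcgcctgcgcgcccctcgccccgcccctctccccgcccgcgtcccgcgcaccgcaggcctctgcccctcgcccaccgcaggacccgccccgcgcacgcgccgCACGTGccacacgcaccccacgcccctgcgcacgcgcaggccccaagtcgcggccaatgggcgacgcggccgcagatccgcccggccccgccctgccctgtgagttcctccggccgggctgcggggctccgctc

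Glycolysis genes, many of which HIF also drives, had 20 of 23 members negative and a median of -0.30, with a median of -0.02 in the first table and -0.57 in the second. At an unadjusted p under 0.05 there were 4 lower and 0 higher, against 5.49% and 5.65% of all genes. PDK1, a mitochondrial kinase that inhibits pyruvate dehydrogenase, was the 1 member apart in both tables, against 0.774% of all genes apart and lower. It had 23.1, 21.9 and 23.6 scaled TPM against 31.0, 31.3 and 24.2, and 18.1, 17.0 and 15.0 against 43.0, 48.4 and 23.7. Its difference was -0.71 ± 0.19 (limma adjusted p = 0.441). HK2, which starts glycolysis, was at -0.07 in the first table and -0.74 in the second, and the aldolase gene ALDOC at -0.56 and -1.71. The difference between tables was not called for HK2 or ALDOC.

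The integrated stress response list, which holds the ATF4 targets of amino acid supply and redox balance, had 18 of 23 negative, 6 lower at an unadjusted p under 0.05 (5.49% of all genes) and a median of -0.36. The 6 became 4 without Dox+ library 2 and 8 without Dox- library 3. The lower genes among all tested numbered 543 and 1448 in those settings, against 794 with all libraries. The median was -0.002 in the first table and -0.77 in the second. CHAC1, a glutathione-degrading enzyme, had 8.64, 9.07 and 7.85 against 15.4, 13.9 and 7.4, and 13.6, 8.33 and 5.62 against 19.1, 29.8 and 24.0. PSAT1, of serine synthesis, had 212, 174 and 173 against 218, 195 and 199, and 283, 205 and 196 against 426, 412 and 343. Both had Dox+ below Dox- and overlapping groups in the first table. DDIT3, which encodes the stress factor CHOP, had 172 scaled TPM in Dox- library 2 against 12.5 to 21.6 in the other Dox libraries.

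Leaving out Dox- library 2 brought these medians closer to 0. They went to -0.29 for hypoxia targets, -0.15 for glycolysis and -0.19 for the integrated stress response. Without Dox- libraries 1 and 2 they were -0.16, -0.08 and -0.09, with 20 of 23, 20 of 23 and 17 of 23 members negative. Heat shock genes had a median of -0.05, and 0.03 without Dox- library 2. HSPA6 itself had 0.507, 0.385 and 0.631 in ZNF683 libraries against 7.34, 5.84 and 3.97 in Mock, which did not overlap, and 0.162, 0.159 and 0.311 in Dox+ against 0.195, 638 and 0.285 in Dox-, which did.

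**Figure D5:**
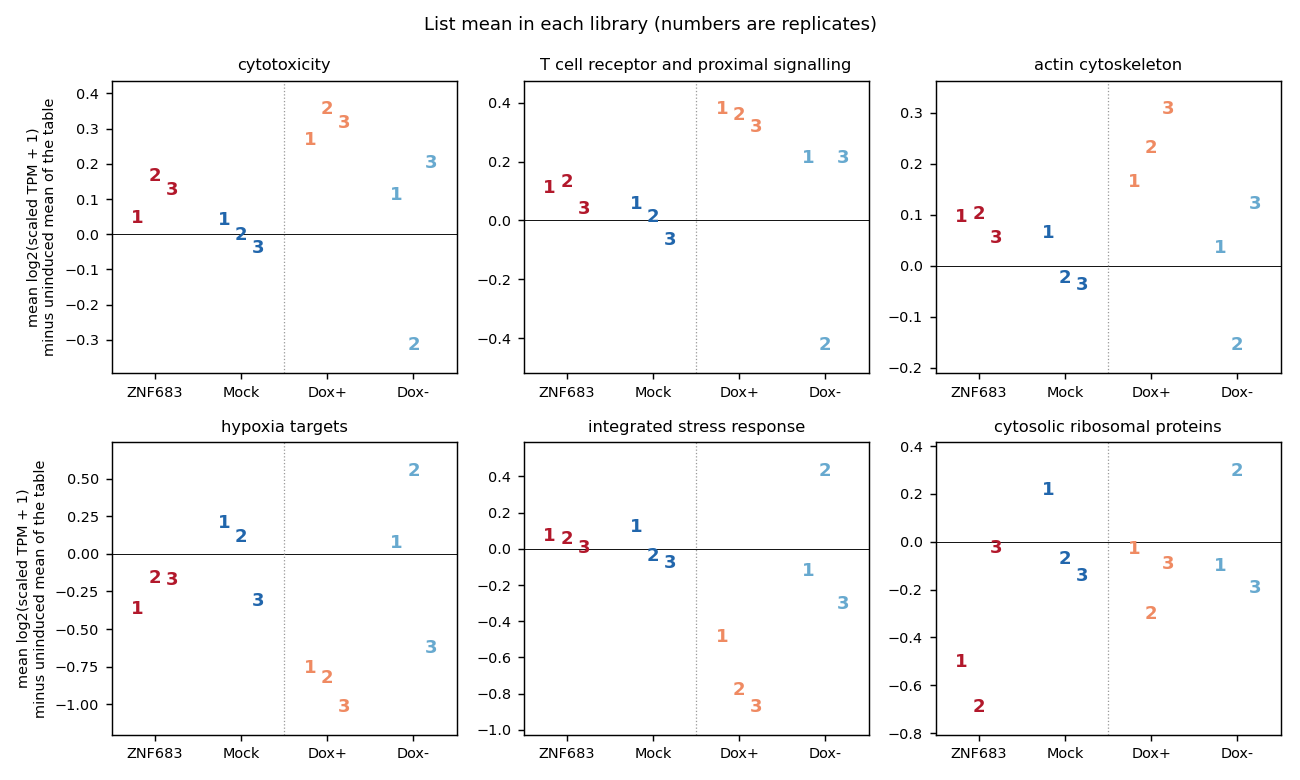
Mean log2(scaled TPM + 1) of 6 gene lists in each library (y axis, minus the uninduced mean of the table), with the replicate number as the symbol. Hypoxia and integrated stress response lists are lower in Dox+ than in all Dox- libraries, with Dox- 2 the highest, and T cell receptor and cytotoxicity lists have Dox- 2 as the lowest.

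Cytosolic ribosomal protein genes, the parts of the ribosome itself, had nearly all differences below 0. All 51 were tested, 50 were negative and 12 were lower at an unadjusted p under 0.05 (0 higher), against 5.49% and 5.65% of all genes. The 12 ran from 2 to 30 with 1 library left out. It was 2 without ZNF683 library 2, Mock library 1 or Dox- library 2, 3 without Dox+ library 2, 4 without ZNF683 library 1, 5 without Mock library 2, 6 without Mock library 3, 23 without Dox- library 3 and 30 without ZNF683 library 3. As deposited it was 0, and without Dox- libraries 1 and 2 it was 5. The median was -0.27, with -0.43 in the first table and -0.14 in the second. The second-table median was 0.013 without Dox- library 2 and 0.058 without Dox- libraries 1 and 2, so its direction did not hold. As deposited it was 0.233, but other lists also stood higher there without scaling. Nuclear oxidative phosphorylation genes went from 0.114 to 0.484 and hypoxia targets from -0.64 to -0.314. The value as deposited is therefore not read as a change of direction. RPL5 had 951, 964 and 1120 scaled TPM against 1340, 1310 and 1120, and 1150, 926 and 955 against 1280, 1420 and 1090. RPS29 had 718, 467 and 698 against 1060, 994 and 1210, and 1680, 1470 and 1590 against 1660, 2500 and 1400. RPS29 was thus apart in the first table and overlapping in the second (common difference -0.50 ± 0.18, limma adjusted p = 0.443). The list mean of ZNF683 library 3 was -0.02, within the Mock libraries at -0.14 to 0.22, while the other ZNF683 libraries had -0.50 and -0.69. Without scaling 14 of the 51 were positive and the median was -0.07, still below the 0.18 of all genes.

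Ribosome biogenesis and MYC target genes, which build ribosomes, had 27 of 30 members positive and a median of 0.27. ODC1, the polyamine enzyme ornithine decarboxylase, had 29.2, 42.3 and 34.5 scaled TPM against 18.0, 19.1 and 28.2, and 31.7, 33.2 and 40.6 against 30.7, 17.4 and 37.3. It was the 1 member past an unadjusted p of 0.05, against 5.65% of all genes. Without Dox- library 3, 16 members passed, and the higher genes among all tested went from 818 to 1898. The list means overlapped in both tables, with Mock library 3 at 0.37, above 2 of the ZNF683 libraries, and Dox- library 3 at 0.52, above all Dox+ libraries. Without Dox- library 3 the median was 0.42, and without Dox- library 2 it was 0.14. The median within the second table was 0.18, and it turned to -0.10 without Dox- library 2, to -0.026 without Dox+ library 3 and to -0.34 without Dox- libraries 1 and 2. Mitochondrially encoded genes were 11 of 13 positive (median 0.17), with MT-ATP8 at 0.48 ± 0.14 and MT-ATP6 at 0.55 ± 0.21, while the 38 nuclear genes of oxidative phosphorylation had a median of -0.01.

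The panel of T cell genes often studied with Hobit gave mixed values. Over its 16 genes the same exact permutation test within tables reached its smallest p of 0.005 for PRF1, CTSW, ITGA1, LEF1 and IL7R. That p is given to any gene whose groups are apart in the same direction in both tables, which 2.02% of all genes were. ITGA1, the CD49a integrin chain of resident cells, had 9.14, 5.84 and 10.6 scaled TPM against 5.60, 2.96 and 4.09, and 6.18, 5.97 and 5.56 against 4.67, 3.0 and 4.14. LEF1, a factor of early T cells, had 690, 973 and 872 against 617, 675 and 601, and 1140, 1190 and 1070 against 1060, 644 and 914. IL7R, the interleukin 7 receptor, was lower, with 6.48, 6.29 and 6.73 against 7.13, 8.15 and 8.62, and 3.91, 3.32 and 4.03 against 4.28, 5.17 and 4.25. For each of these 3 the limma adjusted p was 0.441 or 0.443.

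The other residency and egress genes overlapped. The exact permutation p was 0.42 for ITGAE, the CD103 integrin chain, and for the early retention receptor CD69, 0.155 for the exit receptor gene S1PR1 and 0.12 for its activator KLF2. TCF7, of memory cells, had a p of 0.85, and CCR7, a lymph node homing receptor, had 0.01 with a difference of 0.45 ± 0.13. CCR7 overlapped in the second table, with 1.36 in Dox+ library 1 and 1.44 in Dox- library 3. Among the factors below the filter, PRDM1, which encodes Blimp-1, had 0.339, 0.388 and 0.681 against 0.817, 0.942 and 0.493, and 0.387, 0.191 and 0.271 against 0.873, 1.34 and 0.345. Its exact permutation p was 0.025, and 0.138 without Dox- libraries 1 and 2. That of EOMES was 0.06 and that of TBX21 0.81. Of 12 tested genes in the residency and egress list 7 were positive (median 0.01), and of 20 memory and quiescence genes 13 were (median 0.06).

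Among inhibitory receptors and exhaustion genes, 5 of 15 were tested and all 5 were positive (median 0.11). CD244, a receptor of the SLAM family, had 8.96, 8.80 and 7.69 scaled TPM against 6.11, 6.14 and 4.64, and 4.37, 4.49 and 4.36 against 3.27, 0.904 and 2.93. Its groups were apart in both tables at 0.65 ± 0.18 (limma adjusted p = 0.441). The Notch target DTX1 was also apart, with 6.85, 5.27 and 6.66 against 3.23, 4.50 and 3.7, and 5.73, 4.09 and 3.44 against 2.91, 2.54 and 2.80 (0.55 ± 0.12, limma adjusted p = 0.351). HES1, the classic Notch target, was at -0.02 ± 0.41, with 39.6 in Dox- library 2. The 13 Notch genes tested had a median of 0.07. Of 23 apoptosis regulators 5 were higher and 0 lower at an unadjusted p under 0.05, against 5.65% and 5.49% of all genes. With 1 library left out 3 to 7 were higher. The 7 came without Dox- library 3, where all genes tested had 1898 higher, against 818 with all libraries. The caspase gene CASP9 was apart in both tables at 0.42 ± 0.10. Over all genes 1.24% were apart and higher, as CD244, DTX1 and CASP9 were.

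Lists of proliferation, interferon response and other functions had medians between -0.20 and 0.12. S phase genes had 30 of 40 positive and a median of 0.10. At an unadjusted p under 0.05, 2 were higher and 0 lower, against 5.65% and 5.49% of all genes. Without Dox- library 3, 8 were higher, and the higher genes among all tested went from 818 to 1898. G2 and mitosis genes had 18 of 32 positive (median 0.03), interferon-stimulated genes 17 of 30 (median 0.05), MHC class I genes 13 of 18 (median 0.11), cholesterol synthesis genes 11 of 21 (median 0.02), cytokine receptor and signalling genes 15 of 27 (median 0.05) and unfolded protein response genes 13 of 20 (median 0.12). Immediate early genes had 5 of 13 positive (median -0.20) and histone genes 3 of 12 (median -0.19). Without Dox- library 2 these last medians were 0.06 and 0.02. In Dox- library 2 the immediate early gene FOS had 14.0 scaled TPM against 0.236 to 0.637 in the other Dox libraries.

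The effect was set against itself between tables over the same genes. By limma, 1 gene (0.00691%) differed at an adjusted p under 0.05, and 511 (3.53%) at an unadjusted p under 0.05. That gene was AC010619.2, a processed transcript (chr19:49474586-49487637, plus strand). It had 14.6, 22.5 and 16.6 scaled TPM in ZNF683 libraries against 36.5, 30.9 and 41.9 in Mock, and 14.9, 20.6 and 13.5 in Dox+ against 1.01, 1.78 and 0.726 in Dox-. The induced libraries were lower in the first table and higher in the second, with groups apart in each. Next by p, without passing, were AC091117.1, PET100, PTMAP3, LINC01088 and NDUFB1, the last a subunit gene of respiratory complex I. PET100, an assembly factor of respiratory complex IV, had 218, 171 and 232 against 313, 272 and 358, and 324, 338 and 363 against 203, 169 and 291 (difference of effects 1.26 ± 0.27, limma adjusted p = 0.939).

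Within tables limma called 0 genes (0%) for ZNF683 against Mock, with 827 (5.72%) at an unadjusted p under 0.05, and 1 gene (0.00691%) for Dox+ against Dox-, with 1204 (8.32%). The called gene there was AC010619.2. The typical spread within groups was 0.15 (log2 SD, median over genes) in the first table and 0.27 in the second. Across genes the 2 effects had a Pearson r of 0.29 and a Spearman rho of 0.36, as a description of libraries with no member in common, and genes are not independent replicates. In opposite directions, 46 genes (0.318%) had groups apart in both tables, against 292 (2.02%) in the same direction.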

How the data were processed

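RNA was sequenced from 12 Jurkat libraries, 3 in each of 4 groups, extracted with an RNeasy kit and prepared with a NEBNext low-input kit, per the labels' protocols. The authors deposited TPM per gene symbol in 2 tables; no count model was run, and the depth behind the values is unknown. Tools named in the submitters' processing notes were DESeq2 1.22.2 and kallisto 0.46.0, without their roles; the genome build and transcript set are not given in the sources used here. No deposited column was left unused.

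Groups came from titles and genotype labels. Each table was scaled by median-of-ratios factors (0.933 to 1.04 in the first, 0.58 to 1.2 in the second), because a transcript with a large share lowers all other TPM. Genes with a deposited mean of at least 1 TPM in each table were tested on log2(scaled TPM + 1) with limma 3.58.1 (R 4.3.3, trend, two-sided, Benjamini-Hochberg over all 14468 genes, threshold 0.05), with table as a block for the common effect and 4 group means for effects within tables and their difference. Adjusted p-values are limma's throughout. Single genes below the filter were tested by exact permutation within tables. Pairs of libraries numbered 66, and none shared an exactly equal value above 0; the highest correlation was 0.992.

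The members and the 31 gene lists (696 genes, 686 found in both tables, 18 through an older symbol) were chosen with earlier results of these data known. Lists are described by counts and medians only. Named genes followed a rule: ZNF683; 12 rises and 12 falls with the largest change among genes past the threshold, or else the smallest p, with the same sign in both tables, a mean of 5 TPM or more for the higher side and a symbol without a dot; 6 genes for the difference between tables; up to 3 members of each list by p; and a panel of 16 T cell genes. Some genes of the rule and lists are not reported here by name and still count in the lists. Positions and biotypes come from GENCODE v29 (GRCh38) by symbol, and promoters from RefSeq (GRCh38.p14). CTSW had no entry there. Near-identical copies, overlapping and antisense genes cannot be told apart in these values. Alternatives were values as deposited, a pseudocount of 0.1, other filters on low values, robust moderation, array weights, a replicate block, each library left out, and Dox- libraries 1 and 2 left out together. The procedure was tested on simulated data.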

Additional observations from a re-analysis of the deposited data

Results flagged for a closer look

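The effect on AC010619.2 differed between the tables by 4.0 ± 0.32 (log2, Dox+ minus Dox- against ZNF683 minus Mock, 95% interval 3.31 to 4.70, limma adjusted p = 0.000712). It was -1.0 in the first table and 3.01 in the second, with no overlap between groups in either, so 3 of 3 libraries pointed each way. The gene was taken up because the test of the difference between tables passed over all genes, and its clone-type symbol names a processed transcript. Its overlap with other transcripts was not tested.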

How the results depend on the processing

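The median of all genes was 0.01 with scaling and 0.18 as deposited. Counts of genes called lower for the common effect were 0 as deposited, 7 with array weights, 0 with the replicate block and 2 without Dox- libraries 1 and 2. Counts called higher were 3 with array weights and 1 without Dox- libraries 1 and 2. Genes whose effect differed between tables numbered 2 as deposited, 2 with no filter on low values and 367 with array weights. Within tables, ZNF683 against Mock gave 3 with no filter, 3349 with array weights and 2 without Dox- libraries 1 and 2, and Dox+ against Dox- gave 630 with array weights. The estimation of array weights stopped before it converged. For the common effect it gave Dox- library 2 a weight of 0.0768 against 0.712 to 2.80 in the others. The effects within tables and their difference had weights estimated separately, which are not given here. The genes apart in both tables numbered 12 lower as deposited, 364 lower with no filter, 60 lower at a mean of 5 TPM or more, and 432 higher and 229 lower without Dox- libraries 1 and 2, where fewer libraries have to stand apart.

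Leaving out 1 library at a time gave 0 to 1 genes called higher (1 without Dox- library 2) and 1 to 4 lower (4 without Dox- library 2, 2 without Dox- library 3). The difference between tables gave 1 to 1, Dox+ against Dox- 1 to 91 (91 without Dox- library 3), and ZNF683 against Mock 0 to 23 (23 without ZNF683 library 1). Genes apart in both tables ran from 186 to 538 higher and from 126 to 430 lower. The ZNF683 difference ran from 0.178 to 0.336. It was 0.58 with a pseudocount of 0.1 (exact permutation p = 0.04). A library left alone in its group was not met in these fits, except that without Dox- libraries 1 and 2 the remaining Dox- library is assumed to vary like the others.

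BX571818.1 passed in every setting run but 2, the values as deposited (limma adjusted p = 0.398) and the replicate block (limma adjusted p = 0.216). The cause was not tested. Reversed signs as deposited were NDUFB1 at 0.0288, ITGAE at 0.0658 and TCF7 at 0.135. With array weights they were AC091117.1 at 0.0863, PET100 at -0.23 and LINC01088 at -0.11. Without Dox- libraries 1 and 2 they were AC091117.1 at 0.47, PET100 at -0.321, LINC01088 at -0.0954 and TBX21 at 0.0127. With 1 library left out, AC091117.1 ran from -0.499 to 0.108, LINC01088 from -0.0362 to 0.0817, PET100 from -0.116 to 0.159, TBX21 from -0.0443 to 0.0236 and TCF7 from -0.29 to 0.0543. None of these was called in the common effect.

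Groups share replicate numbers, and whether the numbers pair the libraries is not known. Deviations of same-numbered libraries correlated at -0.265, 0.0954 and -0.295 in the first table, against -0.183 to 0.349 for different numbers. In the second table they correlated at 0.00834, 0.0678 and 0.387, against -0.352 to 0.228. With 3 libraries per group these correlations cannot decide whether the libraries were paired. With the numbers as a replicate block, the counts of genes called were 0 higher and 0 lower for the common effect. The ZNF683 difference of 0.239 then had an exact sign-flip p of 0.0312.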
